A study of Mus musculus with 4 samples.

Results

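The cytosolic ribosome is built from ribosomal RNA and a fixed set of ribosomal proteins, whose genes are named Rpl for the large subunit and Rps for the small subunit. Members were RefSeq protein-coding genes whose symbol is Rpl or Rps followed by digits and at most 1 letter, together with Rplp0, Rplp1, Rplp2 and Rpsa, and without the paralogs Rpl3l, Rpl10l and Rpl39l. The rule found 78 genes among 21627 protein-coding genes of the autosomes and X, 47 of the large and 31 of the small subunit. It rests on symbols alone, so Rps27l and Rpl32l, whose final letter l names them as like another gene, are members. The 78 genes lie on 19 chromosomes, with 14 on chromosome 7 and 4 (Rpl10, Rpl36a, Rps4x and Rpl39) on X. They are short, from 592 to 11774 bp with a median of 3169.5 bp, against a median of 17428 bp for the other genes.

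DNA methylation was measured by whole-genome bisulfite sequencing in mouse embryonic stem cells, with 2 libraries of inducible Ogt knockout (iKO) cells and 2 of control cells. Both groups carry the genotype Ogt fl/fl, a floxed allele of the O-GlcNAc transferase gene. The iKO cells were cultured with 4-hydroxytamoxifen (4OHT) for 6 days and the controls without it, on feeder fibroblasts that were later sorted away. A YFP+ population was sorted in the treated cells only, so the drug, the reporter sort and the loss of Ogt cannot be told apart. Nothing in the labels says whether replicates came from separate cultures, so the spread between libraries may be technical. Bisulfite leaves 5-methylcytosine and 5-hydroxymethylcytosine alike unconverted, and each level below is the sum of both.

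The libraries held 79929994 and 70974957 reads over CpGs (iKO replicates 1 and 2) and 68488024 and 64273609 (control replicates 1 and 2), a mean of 3.35 to 4.04 reads per CpG. A single CpG therefore says little, and levels here are methylated reads over all reads, pooled over the CpGs of a region that have at least 1 read in all 4 libraries. Mitochondrial CpGs, taken as unmethylated, read 0.253% to 0.307% methylated in the 4 libraries. With 2 libraries against 2, an exact permutation test over the 6 arrangements of the labels cannot give a two-sided p below 0.33, and every comparison whose groups do not overlap reaches just that. Read counts of a region are summed over its CpGs, so 1 read that covers several CpGs is counted at each of them. Such counts exceed the number of DNA molecules and are not independent. Limits for levels of 0 treat them as independent and are therefore too narrow. Reads are also not marked with molecular identifiers, so these limits cover counting error only.

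Ribosomal protein genes are transcribed strongly in every growing cell. Their promoters are short, usually lie in CpG islands, and start transcription at a cytosine followed by a run of pyrimidines, the 5′ terminal oligopyrimidine motif through which the mTOR pathway controls translation of these mRNAs. In CpG islands of active promoters cytosines stay unmethylated, whereas the bodies of transcribed genes are usually methylated over most of their length.

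A listed transcription start was found for 58 of the 78 members in RefSeq's promoter table, whose assembly is GRCm38.p6 (mm10). In the window from 250 bp before to 50 bp after the start, these members held 3 to 35 CpGs, with a median of 21, against a median of 14 over all 17273 promoters. Their median GC content was 57.5%, close to the 56.3% of all promoters. The following stretches, from 150 bp before to 20 bp after the start and read 5′ to 3′ with each CpG in capitals, show the promoter with the most CpGs, the promoter with the fewest, the member with the largest difference between groups at its gene end, and 2 members with known roles in disease.
Rpl9 (chr5:65391412-65391581, minus strand): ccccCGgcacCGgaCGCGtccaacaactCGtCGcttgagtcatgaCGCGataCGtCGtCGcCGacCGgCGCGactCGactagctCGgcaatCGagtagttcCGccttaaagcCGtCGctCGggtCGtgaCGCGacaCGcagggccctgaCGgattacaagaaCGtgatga
Rpl32l (chr10:20208289-20208458, plus strand): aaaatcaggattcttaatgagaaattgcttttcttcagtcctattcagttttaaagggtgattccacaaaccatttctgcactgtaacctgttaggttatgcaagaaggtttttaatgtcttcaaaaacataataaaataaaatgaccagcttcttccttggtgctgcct
Rps27l (chr9:66945936-66946105, plus strand): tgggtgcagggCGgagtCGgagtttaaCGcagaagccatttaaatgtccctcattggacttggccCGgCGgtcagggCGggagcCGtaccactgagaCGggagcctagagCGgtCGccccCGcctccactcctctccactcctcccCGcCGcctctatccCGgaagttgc
Rps19 (chr7:24884442-24884611, plus strand): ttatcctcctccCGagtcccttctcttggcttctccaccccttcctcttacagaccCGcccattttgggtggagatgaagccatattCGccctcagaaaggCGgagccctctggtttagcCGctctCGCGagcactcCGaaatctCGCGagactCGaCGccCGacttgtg
Rpl11 (chr4:136053374-136053543, minus strand): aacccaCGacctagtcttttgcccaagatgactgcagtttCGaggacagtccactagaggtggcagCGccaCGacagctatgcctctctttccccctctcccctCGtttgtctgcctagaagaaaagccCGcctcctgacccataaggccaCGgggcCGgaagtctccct

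These stretches were almost free of methylation where they held CpGs. Rpl9, a protein of the large subunit, had 28 CpGs here and 0 methylated reads of 535 over the 4 libraries. Rps19, the gene most often mutated in Diamond-Blackfan anaemia, had 0 methylated of 127 reads over 9 CpGs with reads in every library. Rps27l, a paralog of Rps27, had 1 of 98 over 14 CpGs, and Rpl11, which binds the p53 regulator Mdm2 when ribosome assembly fails, had 3 of 107 over 6. The 3 methylated reads of Rpl11 were all in iKO replicate 2. Rpl32l has no CpG in its stretch.

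Over the whole promoter windows, 18 of 2982 reads were methylated in iKO replicate 1 (0.604%), 15 of 2684 in iKO replicate 2 (0.559%), 22 of 2846 in control replicate 1 (0.773%) and 13 of 2654 in control replicate 2 (0.490%). The groups overlapped at this near-zero level. Reads over CpGs covered in every library were present in 57 of the 58 promoters, and in 39 of these 57 no methylated read was seen in any library. Of the 68 methylated reads in all, 39 came from the 3 CpGs of Rpl32l.

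Several motifs known from strong housekeeping promoters were searched for in these windows, on both strands. CCGGAA, the core of sites for ETS-family factors, was found in 29 of the 58 members (50%) and in 19.3% of all promoters. GGGCGG, the GC box of SP-family factors, was found in 34 members (58.6%) and in 46.9% of all. A palindrome of 10 bases centred on CGCG was found in 5 members (8.62%), Rpl12, Rpl26, Rps19, Rps28 and Rps6, and in 0.724% of all. TGACGTCA, the full site of CREB and ATF factors, was found in Rpl13, Rpl18, Rpl26, Rpl27a and Rps9, also 8.62%, and in 2.37% of all. AAGATGGC, a YY1 core, was found in Rpl13a, Rpl35a, Rps15a and Rps27 (6.90%) and in 3.25% of all. TATAAA, the TATA box, was found in 6 members (10.3%) and in 13.4% of all. On the sense strand, a C followed by at least 4 pyrimidines stood exactly at the listed start in 13 members (22.4%) and in 2.20% of all promoters. Each motif was counted on its own, so 1 window can hold several, and a match describes letters, not binding.

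Around the start the members had low methylation levels. The start end was defined as 1000 bp outside to 500 bp inside the gene boundary where transcription starts, or the CpG-denser boundary for the 20 members without a strand. The denser end was the start in 55 of the 58 members with one. Over 4104 CpGs of the 78 start ends, the methylation level was 4.57% and 4.05% in iKO against 5.45% and 5.98% in control. The iKO libraries were both lower, with means of 4.31% ± 0.36 and 5.71% ± 0.37 (SD, 2 libraries per group), and the difference was -1.40 points (exact permutation p = 0.33, two-sided). Its size depended on the window and the read minimum, with -0.631 points from 500 bp outside to 250 bp inside, -3.70 points over CpGs with at least 3 reads and -6.47 points with at least 5, and -2.33 points as a mean over genes. Only 21 of the 4104 CpGs had at least 5 reads in every library. At start ends the other 21173 genes with CpGs had 17.2% ± 0.55 in iKO and 19.99% ± 0.43 in control.

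**Figure D1:**
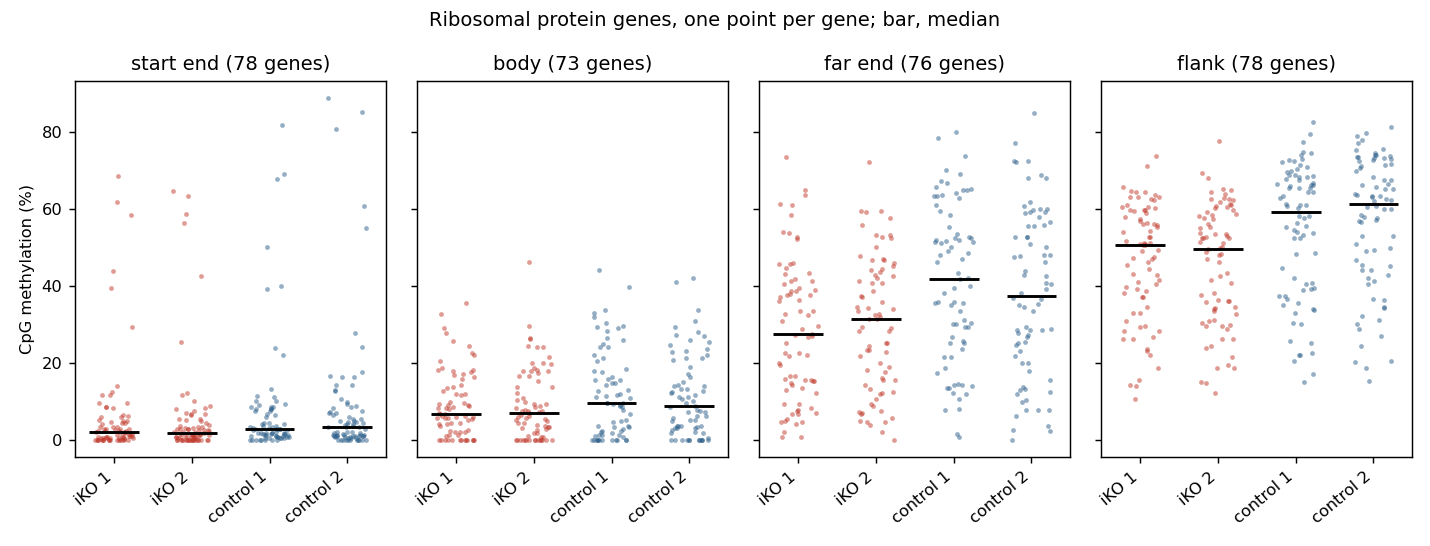
CpG methylation level (%, vertical axis) of each ribosomal protein gene with at least 5 CpGs in a region, by library, for the start end, body, far end and flank; black bars are medians over genes. Points crowd near 0 at start ends, where 48 of 78 members had a control mean under 5%, and spread widely in flanks, where control means ran from 17.6% to 79.9%.

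Among the 78 start ends iKO was lower in 59 and higher in 18, where 72.7% of all genes tested were lower. The median over members was -0.93 points, against -2.57 points over the other genes. Both iKO libraries lay below both controls in 28 members, against 35.4% of all genes tested, and above both in 4, against 6.3%. None of the 78 was called at an adjusted p under 0.05 (quasi-binomial logistic model with Benjamini-Hochberg adjustment over 19817 genes), where 0.0505% of all genes were. At an unadjusted p under 0.05 the model gave 9 of the 78 members and 2430 of 19739 other genes. With edgeR and with limma 0 of all 19817 genes were called, so their 0 members say nothing about the members. In start ends simulated at intermediate levels the model recovered 1% of changes of 0.8 and 31% of changes of 1.6 on the logit scale, among 19817 genes, and recovery at the low levels of the members was not tested.

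The lowest start ends had few or no methylated reads. Rpl7a, a large subunit protein and snoRNA host, had 0 methylated of 592 reads in the 4 libraries. This allows a level of up to 0.507% if all counts are taken as independent. Rps21 had 0% in both controls and 0.41% and 0.53% in iKO, and Rps15a had 0% in every library but iKO replicate 2, which had 0.85%. The 4 X-linked members together had 0% in both iKO libraries (0 of 491 reads, which allows up to 0.611%), against 2.06% and 3.74% in control. In the controls 11 of 381 reads at these 4 genes were methylated, and by gene only 1 control library was above 0 in each of Rpl10, Rpl36a, Rps4x and Rpl39. Of the 11 reads, 7 were at Rpl39 in control replicate 2. The gap between X-linked and autosomal start ends was -4.39 points in iKO and -2.85 points in control, with the groups apart (exact permutation p = 0.33). In flanks X-linked members were the higher set, by 17.97 points in iKO and 14.1 points in control, also apart, and at far ends and in bodies the gap overlapped between groups.

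A few start ends were methylated. Rps27l had 68.6% and 58.7% in iKO and 81.8% and 88.9% in control, over 14 CpGs. Rpl32l had 61.8% and 56.3% in iKO and 69.0% and 85.3% in control, over 23 CpGs. Rpl17 had 58.3% and 63.5% in iKO and 67.9% and 80.8% in control, over 16 CpGs at its denser end. In each of the 3 both iKO libraries were lower, with differences of -21.7, -18.1 and -13.4 points, and none passed the model (adjusted p = 0.273, 0.369 and 0.514, quasi-binomial model). The next most methylated, Rps2, had 43.9% and 64.7% in iKO and 50% and 55% in control over 8 CpGs, which overlap. Rpl38, which is needed for translation of Hox mRNAs in the mouse embryo, had 6.35% and 0.95% in iKO and 9.09% and 16.2% in control.

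Of the methylated ends, those of Rps27l, Rps2 and Rpl22 were not at the listed start. The listed start lies more than 200 bp inside the gene boundary in 6 members, namely Rpl19 (4707 bp), Rpl18 (2604 bp), Rps2 (1942 bp), Rps27l (1462 bp), Rpl22 (1290 bp) and Rpl38 (762 bp). Around its listed start Rps27l had 3.10% and 7.30% in iKO and 5.02% and 2.25% in control, which overlap, against a control mean of 85.4% at the boundary. Rps2 had 0.631% in iKO and 0.622% in control around its listed start. Rpl22 was alike, with a control mean of 50.5% at the boundary and 2.11% around the listed start. Rpl38 had 1.96% in iKO and 1.38% in control there, so its difference at the boundary was not seen at the start. Rpl32l, whose start is the boundary, kept 59.1% in iKO and 77.2% in control. With all 58 listed starts as centres the pooled level was 3.03% ± 0.30 in iKO and 4.29% ± 0.24 in control, again with the groups apart.

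Of the 4 start ends that were higher in iKO with groups apart, Rps21 differed by 0.470 points and the other 3 by 1.76 to 3.41 points. Rpl6 had 6.04% and 6.67% in iKO against 1.03% and 4.85%. Rps6, the target of the S6 kinases, had 1.86% and 4.82% against 1.32% and 0%. Rps29 had 2.64% and 3.21% against 1.78% and 0.56%. None was called, and the adjusted p ran from 0.361 (Rps6) to 0.607 (Rpl6) in the quasi-binomial model.

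Among members with textbook roles, Rpl5, which acts with Rpl11 and the 5S RNA on Mdm2, had 2.63% and 2.47% in iKO and 8.40% and 6.78% in control. Rpl11 had 4.95% and 6.67% against 10.9% and 9.30%. Rplp0, which anchors the stalk of the large subunit, had 9.60% and 11.6% against 13.1% and 16.4%. Rpsa, also known as the laminin receptor, had 4.43% and 2.97% against 6.74% and 7.32%. In these 4 both iKO libraries were lower, and none was called. Rps19, Rplp1, Rplp2, Rpl10a and Rps14 overlapped between groups, with means of 0.974% to 2.72% in iKO and 1.61% to 2.13% in control.

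The stretch of low methylation was wide. In 250 bp bins around the 58 listed starts, the level was 0.54% in iKO and 0.44% in control just before the start and under 1% again at 500 to 1000 bp inside the gene. On the outer side it reached 15.1% in iKO and 21.2% in control between 750 and 1000 bp from the start, and 47.7% and 63.5% between 1750 and 2000 bp. Of the 3230 CpGs within the window around listed starts, 87.6% had no methylated read in any library, against 63.5% in the other genes no longer than the longest member.

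**Figure D2:**
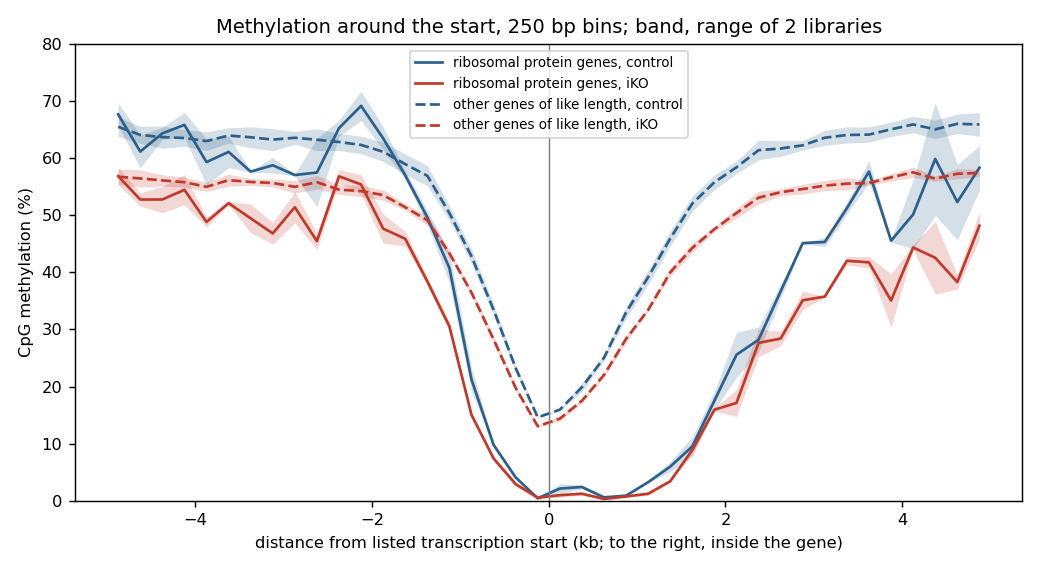
Mean CpG methylation (%, vertical axis) in 250 bp bins by distance from the listed transcription start (kb). Solid lines are 58 ribosomal protein genes. Dashed lines, labelled as of like length, are other genes no longer than the longest member, not otherwise matched in length. iKO is in red and control in blue, and bands are the range of 2 libraries. The members stay under 4% from the start to 1250 bp inside the gene, and iKO lies below control on the outer side from 5000 to 250 bp before the start.

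Inside the gene the members regained methylation slowly. By distance from the listed start, the level was 0.49% in iKO and 0.73% in control at 500 to 1000 bp, 2.25% and 4.50% at 1000 to 1500 bp, and 11.6% and 12.9% at 1500 to 2000 bp. It reached 26.7% and 33.4% at 2000 to 3000 bp and 43.1% and 54.1% at 4000 to 6000 bp. The members with CpGs numbered 57 at 500 to 1000 bp and 15 at 4000 to 6000 bp, so the classes hold different genes. Other genes no longer than the longest member, not otherwise matched in length, already stood at 13.1% and 14.6% in the 250 bp before the start. They had 24.9% and 28.7% at 500 to 1000 bp and 58.1% and 66.9% at 4000 to 6000 bp. In these wider classes the groups of the members overlapped only at 1500 to 2000 bp, where iKO had 11.04% and 12.2% and control 14.2% and 11.6%. In 250 bp bins they also overlapped elsewhere, as at 500 to 750 bp, 750 to 1000 bp and 2250 to 2500 bp.

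Gene bodies, from 500 bp inside 1 boundary to 500 bp inside the other, were likewise poorly methylated. Over 3049 CpGs of 76 members the level was 12.4% and 11.8% in iKO and 15.6% and 14.9% in control. Means of 12.1% ± 0.40 in iKO and 15.2% ± 0.51 in control (SD, n = 2 each) were -3.16 points apart, with no overlap (exact permutation p = 0.33), and -1.89 points apart over CpGs with at least 5 reads. Only 33 of the 3049 CpGs had that many reads in every library. Rpl32l and Rps27 held no CpG in this region. The other genes had 64.4% ± 1.58 in iKO and 72.5% ± 2.36 in control, and those no longer than the longest member 46.8% and 54.0%.

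Body levels of members went with gene length. The 20 members under 2500 bp had 0.93% in iKO and 1.70% in control, the 31 members of 2500 to 4000 bp had 6.86% and 8.16%, and the 27 longer ones had 17.2% and 21.4%. Other genes of the same 3 length classes had 27.7% and 32.2%, 36.4% and 42.4%, and 48.7% and 56.1%. Members were thus below other genes of their own length in each class and library.

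**Figure D3:**
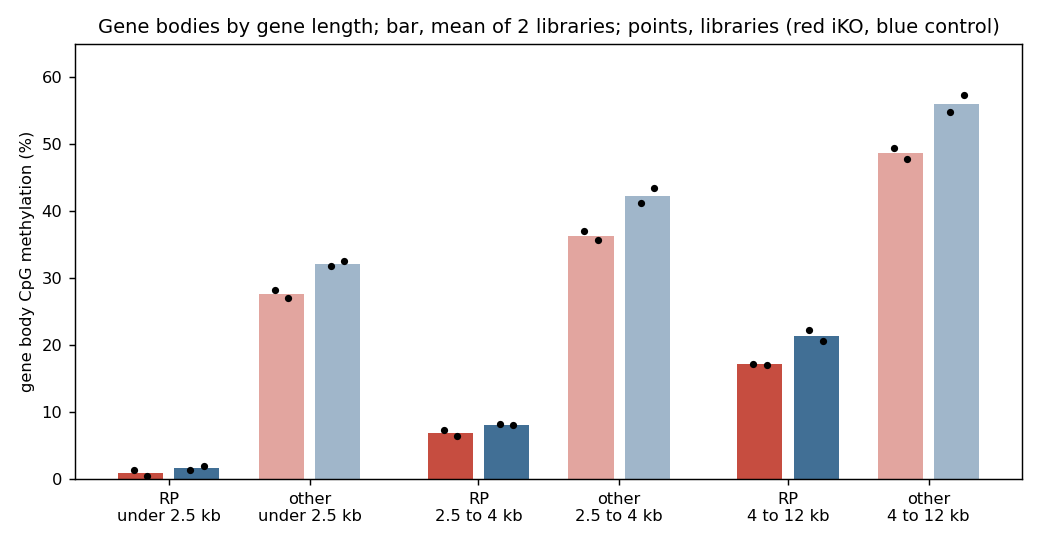
Gene body CpG methylation (%, vertical axis) in 3 classes of gene length, for ribosomal protein genes (RP, dark bars) and other genes (pale bars); bars are means of 2 libraries, points the libraries, red iKO and blue control. The longest members reach 17.2% in iKO and 21.4% in control, below the 27.7% and 32.2% of the shortest other genes.

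At the low extreme, Rps15, Rps28 and Rps29 had no methylated read in any library, of 251, 186 and 136 body reads, which allows levels of up to 1.195%, 1.61% and 2.21%. At the high extreme, Rpl5 had 35.6% and 29.5% in iKO and 39.7% and 42.0% in control. Rpl4 had 32.7% and 46.2% against 44.1% and 33.6%, which overlap. Both were below the pooled level of all other genes in the same library.

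In 49 members the body was lower in iKO, in 19 higher and in 5 equal, where 95.4% of all genes were lower. The median over members was -1.64 points, against -8.16 over the other genes. Both iKO libraries lay below both controls in 29 of the 73 members tested, against 80.9% of all genes. The model called 5 of the 73, where 56.6% of all 19355 genes were called. Bodies held a median of 172 CpGs in the other genes and 33 in the members. Among other genes of the shortest, middle and longest length classes above, 84 of 733, 159 of 1112 and 1260 of 4484 were called lower. A further 6, 4 and 4 were called higher. Members of these classes had 0 of 15, 2 of 31 and 3 of 27 called. Median differences were -2.81, -6.69 and -7.76 points in these other genes and -0.532, -1.13 and -3.77 in the members. All 5 called members were lower in iKO. Rpl23, a further protein that binds Mdm2, had 16.8% and 10.4% in iKO and 31.9% and 23.6% in control (adjusted p = 0.00655, quasi-binomial model). Rpl36 had 9.57% and 18.7% against 26.4% and 26.0%, Rpl14 had 6.96% and 5.83% against 14.2% and 21.1%, and Rps25, which is needed for translation from several internal ribosome entry sites, had 1.94% and 6.19% against 14.8% and 15.0%. In the means Rps25 fell by 10.8 points and Rpl23 fell by 14.2 points. With edgeR the same 5 bodies were called, and 10911 over all genes. These calls depended on single libraries: of the 5, 0 remained once iKO replicate 2 was dropped, 1 once iKO replicate 1 was and 2 once control replicate 2 was, and limma on logit levels called 0. The count over all genes moved as well, from 10947 to 3 without iKO replicate 2, 1234 without iKO replicate 1, 3059 without control replicate 2 and 0 with limma, so 56.6% is no firm reference for the members.

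In bodies simulated at intermediate levels the model recovered 37% of changes of 0.8 and 97% of changes of 1.6 on the logit scale, among 19355 genes. Most members lie under those levels, and recovery at theirs was not tested.

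Other bodies were higher in iKO with groups apart, and none was called. Rps3, which also has a role in DNA repair, had 22.4% and 26.4% in iKO and 15.9% and 20.7% in control. Rpl30 had 8.09% and 4.92% against 3.41% and 0%, and Rpl13 had 5.73% and 8.11% against 3.45% and 1.67%. Rps9 differed by 1.65 points. In all, 5 members had both iKO libraries above both controls, against 0.987% of all genes.

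At the far end, the boundary opposite the start end, the members were partly methylated. For the 20 members without a strand, Rps14 and Rpl7 among them, this is the CpG-poorer boundary and need not be where transcription ends. Over 1186 CpGs the level was 25.9% and 26.5% in iKO and 35.7% and 34.6% in control. Means of 26.2% ± 0.41 in iKO and 35.1% ± 0.81 in control (SD, n = 2 each) differed by -8.96 points (exact permutation p = 0.33), and the iKO level was 74.5% of the control level. The other genes had 58.0% ± 1.47 and 66.1% ± 1.89, a difference of -8.14 points.

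Of 76 far ends tested, 65 were lower in iKO and 11 higher, where 84.1% of all genes were lower. The median was -10.1 points, against -8.59 over the other genes. Both iKO libraries lay below both controls in 44, against 48.6% of all genes, and above both in 0, against 3.22%. The model called 1 of the 76, where 0.828% of 18709 genes were called. This was Rps14, the gene whose loss causes the anaemia of the 5q syndrome. Its far end had 16.7% and 14.3% in iKO and 33.3% and 58.0% in control, over 27 CpGs (adjusted p = 0.0245, quasi-binomial model). The 2 controls differed widely. The call was lost in edgeR (adjusted p = 0.0995), in limma (adjusted p = 0.304) and without iKO replicate 1, iKO replicate 2 or control replicate 2 (adjusted p up to 0.436). Over all genes the 155 calls became 0 without either iKO replicate, 16 without control replicate 2, 4 with edgeR and 0 with limma. At an unadjusted p under 0.05 there were 19 of the 76 members and 3607 of 18633 other genes.

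The next largest far-end differences with at least 10 CpGs were in large and small subunit genes alike. Rpl7 had 41.4% and 47.8% in iKO and 73.8% and 68.2% in control. Rpl9 had 28.8% and 34.1% against 52.5% and 60%, and Rps25 had 26.6% and 42.9% against 65.9% and 52.9%. Rpl27 had 41.9% and 32.4% against 63.5% and 50.9%. The iKO libraries were the lower ones in each, and none was called.

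The flanks, 1000 to 5000 bp outside both boundaries, were the most methylated region of the members, at a lower level than in other genes. Over 6697 CpGs the level was 43.4% and 42.8% in iKO and 50.1% and 53.1% in control. Means of 43.1% ± 0.45 in iKO and 51.6% ± 2.12 in control (SD, n = 2 each) differed by -8.53 points (exact permutation p = 0.33). Other genes had 55.6% ± 1.48 and 63.6% ± 2.21, which differed by -8.04 points.

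Flanks were lower in iKO in 76 members and higher in 2, Rpl8 and Rps4x, where 95.3% of all genes were lower. The median was -8.90 points, against -8.27 over the other genes. Both iKO libraries lay below both controls in 61, against 70.9% of all genes, and above both in 0, against 0.865%. The model called 23 of 78, all lower, where 21% of 21396 genes were called. Rpl32 fell from 54.4% and 62.5% in control to 37.1% and 38.2% in iKO, and Rps25 from 69.6% and 73.3% to 52.8% and 49.5%. In the means Rpl32 fell by 20.8 and Rps25 fell by 20.3 points (adjusted p = 0.00436 and 0.00420, quasi-binomial model). Rpl30 and Rpl18 each fell by 17.0 points. Among the other called flanks were those of Rps14, Rpl27, Rpl36, Rpl6 and Rpsa, as well as Rps7, which fell by 16.9 points, and Rpl24, which fell by 9.37 points. With edgeR 23 flanks were called, 22 of them shared, and 4419 over all genes. Without iKO replicate 2 the model called 0 flanks, without control replicate 2 it called 2 and without iKO replicate 1 it called 4, while limma called 0. Over all genes the 4487 calls became 24, 458 and 922 in the same order, and 13 with limma.

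**Figure D4:**
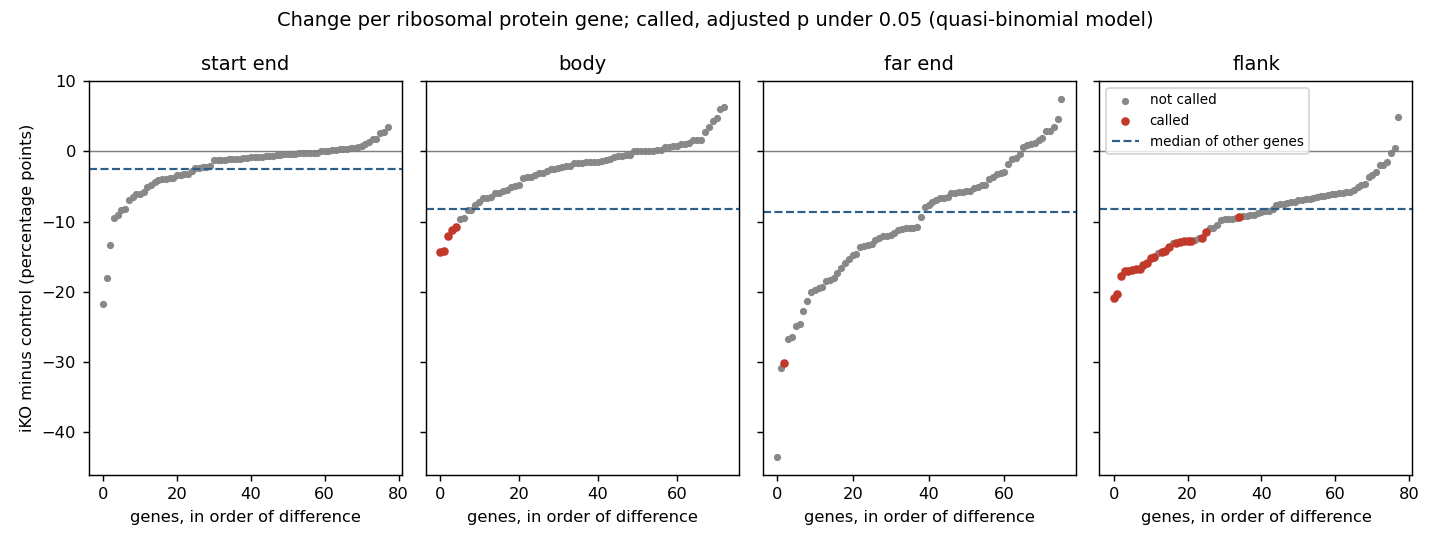
Difference between iKO and control means (percentage points, vertical axis) of each ribosomal protein gene with at least 5 CpGs, ordered by size within each region; red points passed an adjusted p under 0.05 in the quasi-binomial model, and the dashed line is the median of the other genes. Called genes number 0 at start ends, 5 in bodies, 1 at far ends and 23 in flanks, all below 0.

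Large subunit genes stood above small subunit genes at start ends, in bodies and at far ends and below them in flanks, in each of the 4 libraries. Far ends of the large subunit had 28.9% in iKO and 37.1% in control, against 22.1% and 31.6% in the small subunit. Large subunit bodies had 12.8% in iKO and 15.9% in control, and small subunit bodies 10.8% and 14.1%. Small subunit start ends overlapped between groups, with 4.10% and 2.69% in iKO and 3.45% and 5.10% in control, while large subunit start ends did not, with 4.90% and 5.15% against 6.88% and 6.61%. The size of this difference overlapped between groups in all 4 regions (exact permutation p = 0.667, 0.667, 1 and 1 for start end, far end, body and flank).

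Of the 78 members, 29 contain a listed snoRNA, the small RNAs that guide modification of ribosomal RNA and are cut out of introns. Their bodies had 12.9% in iKO and 16.7% in control, and those of the 49 others 11.7% and 14.5%. In flanks the hosts were the lower set by 5.84 points in iKO and 7.29 points in control, a gap whose groups did not overlap. In the other 3 regions it overlapped between groups.

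The X-linked members held few CpGs at a mean depth of 1.92 to 2.57 reads over the 4 regions, so their levels were imprecise. Their 63 body CpGs had 3.01% and 3.797% in iKO and 0.72% and 6.25% in control. The far end of Rpl39 had 14.3% and 15.4% in iKO and 66.7% and 50.0% in control over 6 CpGs, and was not called (adjusted p = 0.0722, quasi-binomial model). The flanks of the 4 had 59.9% and 61.8% against 66.5% and 64.7%.

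Whether the members changed more or less than other genes depended on the scale. In percentage points, the gap between members and other genes was smaller in iKO at start ends (-12.9 against -14.3) and in bodies (-52.4 against -57.3), with the groups apart, and overlapped at far ends (-31.8 against -31.0) and in flanks (-12.5 against -12.0). As a ratio, members stood at 25.03% of other genes in iKO and 28.6% in control at start ends, 18.8% and 21.0% in bodies, 45.2% and 53.2% at far ends, and 77.6% and 81.2% in flanks, lower in iKO with the groups apart in all 4. As a difference of log odds, only start ends were apart, at -1.53 in iKO and -1.42 in control. In bodies the 4.93 points by which the gap was smaller in iKO became 2.90 without control replicate 2. At start ends the groups overlapped over CpGs with at least 5 reads, where the gap was smaller in iKO by 0.917 points. The direction there also turned in points, to -0.529, when the reference was restricted to other genes with as many CpGs. A difference particular to ribosomal protein genes therefore held in no region under every scale and reference used.

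**Figure D5:**
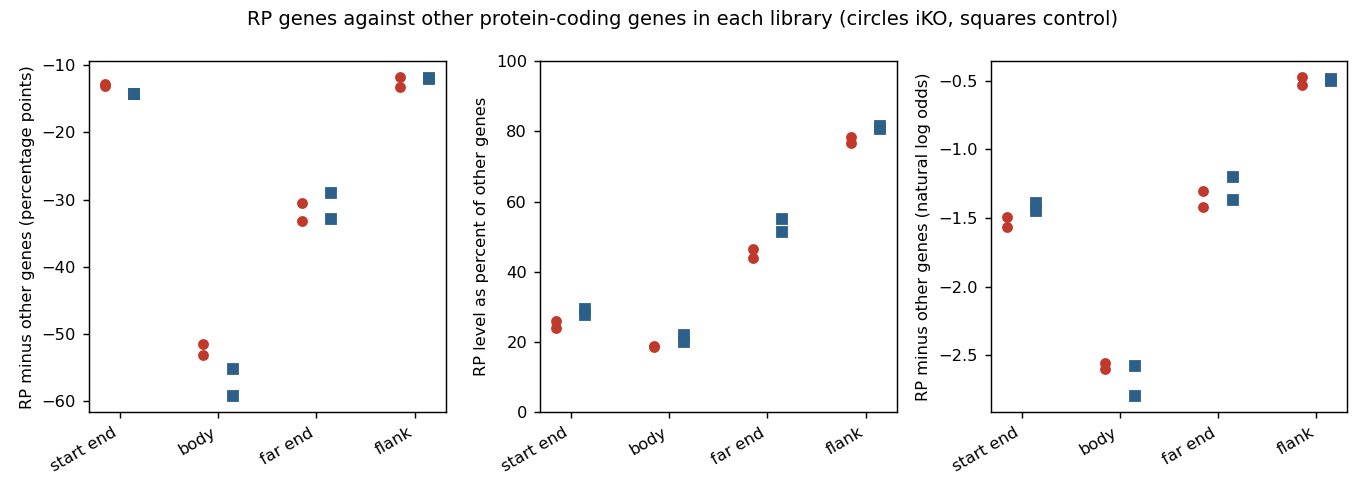
Ribosomal protein (RP) genes against all other protein-coding genes within each library, as a difference in percentage points, as a ratio in percent and as a difference of natural log odds, for 4 regions; red circles iKO, blue squares control. In bodies the iKO points lie above control in points and below it as a ratio.

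Other genes of the translation machinery also had low levels at the start end, and higher levels in the body than the members. Start ends of 78 mitochondrial ribosomal protein genes had 7.06% in iKO and 9.01% in control, those of 74 translation factor genes 5.52% and 6.69%, and those of 34 ribosome assembly genes 4.96% and 6.30%. Their bodies had 56.1% and 65.3%, 58.5% and 67.6%, and 57.6% and 66.9%. These lists were not matched to the members by gene length. Their bodies held a median of 75.5, 129.5 and 139 CpGs per gene, against 33 in the members. In bodies the model called 36 of 75, 47 of 73 and 20 of 33 of these genes, all lower in iKO, where it called 56.6% of all genes. They come from the fit whose calls over all genes went to 3 without iKO replicate 2 and to 0 with limma. Other highly expressed housekeeping genes were nearer to the members, with 23.7% and 28.5% in bodies and 4 of 22 called, all lower. Their far ends had 32.9% in iKO and 43.3% in control. Their flanks had 38.8% and 44.9%, below the 43.1% and 51.6% of the members, so low flanks were not particular to the members.

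Of the ribosomal protein paralogs and related genes outside the rule, 10 were found, and they were of both kinds. Fau, which encodes a ribosomal protein fused to a ubiquitin-like protein, and Rack1, a small subunit scaffold, had start ends of 0% to 4.18% in every library. So did Rpl36al, with 0% in 3 libraries and 1.30% in control replicate 2. Rpl10l and Rpl3l, known for expression in testis and in muscle, had control means of 47.1% and 58.8%, with groups that overlapped.

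Rpl39l, a testis paralog of Rpl39, had a start end of 16.5% and 27.4% in iKO and 60.9% and 61.2% in control over 24 CpGs. It fell by 39.1 points (adjusted p = 0.0384, quasi-binomial model), and was the 1 gene of its list called at the start end. The call was lost in edgeR (adjusted p = 0.115), in limma (adjusted p = 0.552) and when 1 library was left out (adjusted p up to 0.766). Its body had 79.2% and 67.1% against 87.7% and 84.6%. Rpl7l1 fell in the body from 52.2% and 51.0% to 34.5% and 37.3% (adjusted p = 0.00216, quasi-binomial model). The call was kept in edgeR (adjusted p = 0.00274) and lost in limma (adjusted p = 0.0901), and leaving out 1 library could lose it. The body of Rpl3l was the other one called (adjusted p = 0.0434, quasi-binomial model), with 63.2% and 50% in iKO and 63.4% and 72.1% in control. This call, too, was kept in edgeR (adjusted p = 0.0380) and lost in limma (adjusted p = 0.130), and leaving out 1 library could lose it.

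Ribosomal protein genes have many processed pseudogenes, of which the RefSeq table lists 310, and reads from such copies can be placed on exons of the parent gene. No CpG in the start ends, bodies and far ends of members exceeded 5 times the median depth, and 4 of the 6697 flank CpGs did. Mean depth per CpG in members was 3.26 reads in iKO and 3.08 in control at start ends and 3.65 and 3.41 in bodies. The part of such reads in the levels was not tested.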

How the data were processed

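Genomic DNA of 2 Ogt iKO and 2 control samples was bisulfite-sequenced, and each deposited table holds the CG positions of 1 library. The authors used BSMAP, Picard and mm10, per the submitters' processing notes; versions and filters are not given in the sources used here. The deposited values used here are read counts, methylated and total, per the file headers. The authors' expected count, total reads corrected for C/T variants, served as an alternative, and their deposited fraction was not used for levels. File names, which give genotype and replicate, were matched to the samples with that group and number.

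Counts were joined in Python 3.11.15 (NumPy 2.4.6, pandas 2.3.3, PyArrow 21.0.0) over CpGs with at least 1 read in all 4 libraries, and figures were drawn with Matplotlib 3.10.9. Gene positions came from RefSeq (GRCm38.p6), and strand from its promoter table. The members, gene lists and motifs were chosen with earlier results of these data known. Regions with at least 5 CpGs were fitted over all genes in R 4.3.3 with a quasi-binomial logistic model, group the only term, with a dispersion of at least 1 moderated by limma 3.58.1, and p-values adjusted by Benjamini-Hochberg. edgeR 4.0.16 (quasi-likelihood) and limma on logits (0.5 reads added to both counts) were alternatives.

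The dispersion was first moderated without a trend. That version recovered no changed genes at start ends or in bodies of simulated data, and it was replaced by a fit with a trend on the information per gene that leaves genes with too little information out of the moderation. Its counts on the real data had been seen by then, and they are given in the closing section as an alternative. Simulated data changed 200 genes per region, at intermediate levels and under a fixed spread between libraries. With the trend they gave 1, 2, 10 and 7 false calls at start ends, far ends, bodies and flanks.

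Named members are those called, the 5 largest decreases and increases per region among members with at least 10 CpGs and groups apart, the 3 highest and 3 lowest control levels at start ends and in bodies, the X-linked members, Rplp0, Rplp1, Rplp2, Rpsa and members with textbook roles. Ranking used means of the library levels. Members named for a motif, for an offset start or for a higher flank, and Rps2 and Rpl22, were chosen after their values were seen. Listed starts, references by gene length and the ratio and log odds scales were added after the data were seen. Fits without 1 library take the spread of that group from the other group. Lambda reads were not analysed here. Some genes that the rule names are counted but not reported here by name.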

Additional observations from a re-analysis of the deposited data

How the results depend on the processing

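Levels of members kept their direction, lower in iKO, under all alternatives tried in the 4 regions. The start-end difference of -1.40 points became -0.631 from 500 bp outside to 250 bp inside, -3.70 with at least 3 reads, -6.47 with at least 5 and -2.33 as a mean over genes, and the body difference of -3.16 became -1.89 with at least 5 reads. The change against other genes reversed at start ends with references of as many CpGs (-0.529 points), as a ratio (-3.53) and as log odds (-0.113), and in bodies as a ratio (-2.29). In bodies (4.93 points) leaving out 1 library gave 2.90 (without control replicate 2) to 6.96 (without control replicate 1). At far ends (-0.824 points) it reversed with at least 5 reads (1.23), and leaving out 1 library gave -2.73 to 1.09. In flanks leaving out 1 library gave -1.22 to 0.237. Start ends stayed at 0 member calls throughout, where the main fit called 10 of all genes. With edgeR, limma, the replicate block or a dispersion without trend, 0 of all genes were called there. Called far ends went from 1 to 0 with at least 3 reads, edgeR, limma, and a dispersion without trend. Over all genes the 155 calls became 26 (of 6024 tested), 4, 0 and 24 in the same order. Leaving out 1 library could also lose the call. Called bodies went from 5 to 3 with at least 3 reads, to 0 with limma and to 0 without the trend. Over all genes the 10947 calls became 7658 (of 17056 tested), 0 and 7234 in the same order. With edgeR the same 5 were called, and 10911 over all genes. Leaving out 1 library moved the member count in both directions. Called flanks went from 23 to 3 with at least 3 reads, to 0 with limma and to 28 without the trend (all 23 shared). Over all genes the 4487 calls became 1327 (of 19690 tested), 13 and 5087 in the same order. With edgeR 23 were called, 22 of them shared, and 4419 over all genes. Leaving out 1 library lowered the member count. Fewer genes and CpGs enter at 3 reads; for the rest the cause was not tested. Replicate numbers are shared by name only: same-numbered libraries had correlations of deviations of -0.0758 to -0.00813 over genes. With the replicate block, member calls were 0 at start ends, 0 at far ends, 0 in bodies and 7 in flanks. Over all genes the block gave 0 of 19817, 6 of 18709, 184 of 19355 and 1048 of 21396 in the same order. Depth limits single genes, since 21, 16, 33 and 145 member CpGs at start ends, far ends, bodies and flanks had at least 5 reads in every library.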

Other observations

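The 20 members under 2500 bp differed from the longer ones at the far end too. Their far ends had 16.0% in iKO and 23.7% in control, against 29.7% and 39.2% in members of 2500 to 4000 bp and 31.5% and 40.5% in longer ones, with both iKO libraries lower in each class. In genes under 2500 bp, far-end CpGs inside the gene lie less than 2500 bp from the opposite boundary. Members were low near their starts, and the part of this nearness in the difference was not tested. The far end of Rpl41, one of the shortest ribosomal proteins, had a control mean of 0.360%, and that of Rpl36 had 2.44%. The Rpl41 gene is 1059 bp long, and its far end held 69 CpGs, against 38 at its start end. Rpl21, Rpl7, Rpl32l and Rps27l had control means of 69.1% to 78.6% at the far end. These members were picked after their values were seen.

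Flanks ranged widely between members. Control means of Rpl35 and Rpl23a were 17.6% and 17.8%, and those of Rpl34, Rpl9 and Rpl36a were 76.9%, 76.9% and 79.9%. The iKO means of the first pair were 11.3% and 14.4%. These members, too, were picked after their values were seen.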
